A study of Mus musculus with 18 samples.

Results

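Genes of 4 families of detoxification enzymes were followed across the colon and the spinal dorsal horn of mice. The families are the cytochromes P450 (Cyp), the glutathione transferases (Gst for the soluble ones and Mgst for those in membranes), the UDP-glucuronosyltransferases (Ugt) and the sulfotransferases (Sult). Members were taken by symbol from the count tables of both tissues, whatever their values. This gave 62 of 15410 symbols, with 60 of 14987 in the colon table, 59 of 15193 in the dorsal horn table and 57 in both. Ugt2b35, listed in the colon table only, was the one glucuronosyltransferase among them, and other Ugt genes were not analysed here.

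All animals were labelled wild type, and each tissue had 3 groups of 3 libraries. Nivolumab mice carried a bone cancer and received nivolumab, an antibody raised against human PD-1, the inhibitory receptor of T cells. Cancer mice carried a bone cancer and received IgG, and sham mice had sham surgery and IgG. The labels give no age, dose, time or tumour cell, and do not say whether libraries with the same number came from the same animal, so p-values measure the spread between these libraries, which may be partly technical.

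Detoxification runs in steps. P450 enzymes oxidise foreign compounds, steroids, fatty acids and sterols, using electrons from P450 reductase or ferredoxin. Glutathione transferases then couple reactive products such as epoxides and lipid aldehydes to glutathione, while glucuronosyl- and sulfotransferases add sugar acid or sulfate so that transporters can export the product. In the gut lining these enzymes meet compounds from food and microbes, and in the nervous system some of them handle cholesterol, lipid aldehydes and transmitters. Many of their genes are known targets of the transcription factors NRF2, which binds the antioxidant response element, and AhR, which binds the xenobiotic response element.

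The start regions of 4 members on which the results below turn are shown to place the known recognition letters of these factors. Sequences are from RefSeq on GRCm38.p6, each the 250 bases before the gene's start, 5′ to 3′ on the strand of the gene, with motif letters in capitals. Gsta3 lies at chr1:21240335-21240584 on the plus strand, Gstm1 at chr3:108017819-108018068 on the minus strand, Gstp1 at chr19:4037913-4038162 on the minus strand and Cyp46a1 at chr12:108334066-108334315 on the plus strand. For Gstm1, which has 2 starts in the table, the downstream one is shown.
Gsta3: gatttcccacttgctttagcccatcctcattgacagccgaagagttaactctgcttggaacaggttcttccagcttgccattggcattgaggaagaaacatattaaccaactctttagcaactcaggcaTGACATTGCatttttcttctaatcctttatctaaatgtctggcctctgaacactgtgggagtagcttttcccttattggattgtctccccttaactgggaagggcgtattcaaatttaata
Gstm1: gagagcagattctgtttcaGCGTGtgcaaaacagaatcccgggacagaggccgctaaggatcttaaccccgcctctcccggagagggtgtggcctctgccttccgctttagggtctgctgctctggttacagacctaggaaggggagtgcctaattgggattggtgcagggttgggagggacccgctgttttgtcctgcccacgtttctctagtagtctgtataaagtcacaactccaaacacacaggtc
Gstp1: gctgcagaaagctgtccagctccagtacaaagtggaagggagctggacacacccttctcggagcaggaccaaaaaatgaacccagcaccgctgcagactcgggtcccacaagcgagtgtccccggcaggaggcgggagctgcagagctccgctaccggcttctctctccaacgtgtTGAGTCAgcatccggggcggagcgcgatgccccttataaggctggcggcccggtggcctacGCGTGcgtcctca
Cyp46a1: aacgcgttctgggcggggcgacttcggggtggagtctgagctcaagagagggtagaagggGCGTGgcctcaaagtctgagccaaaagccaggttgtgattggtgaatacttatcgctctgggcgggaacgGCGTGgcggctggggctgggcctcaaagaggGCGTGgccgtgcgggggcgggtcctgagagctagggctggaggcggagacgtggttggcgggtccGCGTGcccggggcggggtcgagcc

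In the Gsta3 window the capitals mark TGACNNNGC, the core of the antioxidant response element, 121 to 113 bases before the start. The Gstp1 window holds TGANTCA, the letters of an AP-1 site, 74 to 68 bases before the start. The remaining capitals are GCGTG, the core of the xenobiotic response element, which occurs once in Gstm1 and Gstp1 and at 4 places in Cyp46a1. Searched on both strands, where motifs may overlap, TGACNNNGC was present in 10.2% of all 32851 windows of this length, TGANTCA in 6.75% and GCGTG in 28.2%. Of the 62 members 51 had a window in the table, with 66 starts among them. TGACNNNGC was in 6 of the 51 members (11.8%), TGANTCA in 7 (13.7%) and GCGTG in 15 (29.4%). A member counted if any of its windows matched, while the shares of all windows count each window, so these shares are unlike measures. The 6 with TGACNNNGC were Gsta3, Gstm5, Gstm7, Mgst1, Cyp4f18 and Cyp8b1. A match is a description of letters and not a bound site. The Gsta3 window had 42% G and C and 2 CpG, against 67.6% and 23 CpG in that of Cyp46a1.

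Many members stand in gene clusters. The 6 mu-class genes among the members, in the order Gstm5, Gstm7, Gstm6, Gstm3, Gstm1 and Gstm4, lay within 149.1 kb of chromosome 3. Gsta4, Gsta1 and Gsta2 lay within 173.0 kb of chromosome 9, apart from Gsta3 on chromosome 1, and 4 theta-class genes lay within 63.3 kb of chromosome 10. Neighbours of this kind can share reads. Of the stretches of 75 bases in the exons of Gsta1, 84.7% also occurred elsewhere in the transcripts of GENCODE (Gm3776, Gsta2 and Gm10639), and the share was 29.2% for Gstp1 (Gstp2 and Gstp-ps), 21.6% for Gstm3, 11.7% for Gstm1 and 0% for Gsta3, Gsta4 and Cyp46a1. Values of the first 4 are therefore uncertain where the authors' counting could have split reads.

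Levels are given in CPM, read counts relative to the scaled library size, and between genes as CPM per kilobase of exon. In the colon the highest mean levels per kilobase over 9 libraries were those of the membrane enzyme Mgst3 (440 CPM per kb), Gsto1 of the omega class (203), Gstp1 of the pi class (201) and the phenol sulfotransferase Sult1a1 (164). Gstm1 followed with 116 CPM per kb. Among the listed P450 genes, Cyp4f40 of a fatty acid-hydroxylating family (33.6) and Cyp2s1, an epithelial P450 (29.7), led. Rankings in either tissue cover listed symbols only, and the colon table also lacked the goblet marker Muc2 and the absorptive marker Car4. In the dorsal horn Sult4a1, a sulfotransferase typical of brain, was highest with 219 CPM per kb and gave 31.4% of the summed CPM of the members. Gstm1 (185), Gstm5 (101), Gstp1 (93.3) and Mgst3 (75.1 CPM per kb) came next. The P450 genes with the highest levels there were Cyp27a1, the sterol 27-hydroxylase (25.3), and Cyp46a1, the cholesterol 24-hydroxylase of neurons (18.3 CPM per kb).

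The order of the tissues differed from member to member. For 21 of the 57 members in both tables every colon library was above every dorsal horn library (36.8%, with 25.6% among all genes), and for 11 the order was the opposite (19.3%, with 30.7% among all genes). The tables were scaled separately, so these orders are a description. Sult1b1, known for sulfating thyroid hormone, and Sult1d1, a mouse enzyme for catecholamines, averaged 178 and 151 CPM in the colon and reached at most 0.0698 and 0.105 CPM in any dorsal horn library. Mgst2, which can make leukotriene C4, averaged 153 CPM in the colon and 0.841 CPM in the dorsal horn. Cyp46a1 averaged 1.06 CPM in the colon and 60.02 CPM in the dorsal horn, and Sult4a1 averaged 7.53 and 551 CPM.

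**Figure D1:**
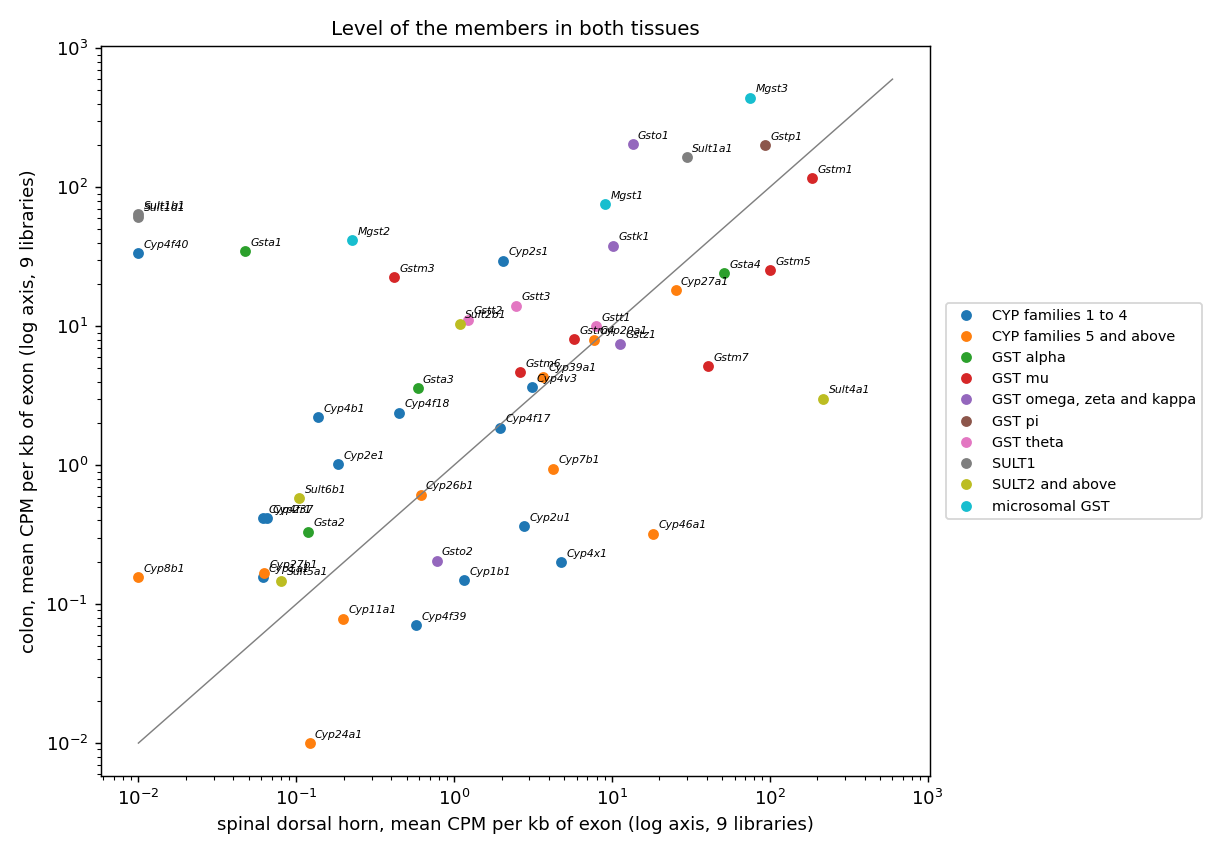
Mean CPM per kilobase of exon of 52 members in the colon (vertical) and the dorsal horn (horizontal), both over 9 libraries and on log axes, coloured by enzyme class, with values below 0.01 drawn at 0.01 and the line marking equal levels. Sult1b1, Sult1d1 and Gsta1 sit at the upper left, and Sult4a1 and Cyp46a1 at the lower right.

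Some libraries stood apart within their group. Total counts ran from 20896854 to 30803957 per colon library and from 21855085 to 29071908 per dorsal horn library. The tissue labels held, with absorptive epithelium markers at a mean of 10.004 to 10.90 log2 CPM in every colon library and neuron markers at 7.89 to 8.31 in every dorsal horn library. Colon libraries varied in 4 Hox genes of the hind gut, with means of −0.78, 4.22 and 3.34 log2 CPM in nivolumab, 3.04, 1.25 and 0.15 in cancer and 2.92, 4.64 and 2.47 in sham, and in 6 crypt markers, with 2.20, 5.44 and 5.32 in nivolumab, 2.59, 1.55 and 4.44 in cancer and 5.12, 5.45 and 5.56 in sham. Smooth muscle markers of the colon had means of 8.32 to 8.89 in nivolumab, 9.54 to 11.41 in cancer and 7.28 to 11.29 in sham. In the dorsal horn, 14 markers of sensory ganglion neurons, none at 0 in all libraries, had means of 6.09 to 6.86 log2 CPM in nivolumab, 1.07, 1.19 and 5.33 in cancer and 0.91, 0.98 and 5.17 in sham. Their summed level was 3770 to 4919 CPM in nivolumab, 1916 to 2706 CPM in cancer and 2599 to 3291 CPM in sham. In bulk tissue, fewer cells of a type and less RNA per cell cannot be told apart.

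In the colon the member with the clearest difference was Gsta3, an alpha-class transferase known in mouse liver for conjugating aflatoxin epoxide. Its level in cancer colons was below that of both other groups, and nivolumab colons had levels like those of sham. Mu-class genes, which conjugate epoxides and quinones, were also lower in cancer than in sham. Ugt2b35, the one glucuronosyltransferase among the members, was lower in both tumour-bearing groups. None of these differences passed the threshold of an adjusted p of 0.05 in edgeR's quasi-likelihood test over all genes.

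Gsta3 had 18.3, 22.4 and 23.7 CPM in nivolumab colons, 3.58, 6.31 and 5.12 CPM in cancer colons and 17.3, 25.1 and 18.3 CPM in sham colons. The 3 cancer libraries lay below all 6 others, and the nivolumab and sham libraries overlapped. The group averages were 21.5 ± 2.81 CPM in nivolumab, 5.003 ± 1.37 in cancer and 20.2 ± 4.27 in sham (SD, n = 3 each). The fitted difference of cancer against sham was −2.01 on the log2 scale (SE 0.27, adjusted p = 0.0748), a level 4.04-fold lower. Nivolumab against cancer gave 2.10 (SE 0.27, adjusted p = 0.141), 4.29-fold higher, and nivolumab against sham gave 0.09 (SE 0.26, adjusted p = 0.996). Both comparisons with the cancer group share its 3 libraries. Without any 1 colon library the log2 difference of cancer against sham kept between −2.20 and −1.80. Markers of other cells moved with it in part. Of 5 liver genes, 3 could be tested and none passed, and their mean was 1.73 to 2.81 log2 CPM in nivolumab, −0.05 to 0.34 in cancer and 2.23 to 3.25 in sham, while their summed level overlapped at 53.7 to 101 CPM in nivolumab, 70.5 to 121 CPM in cancer and 48.0 to 118 CPM in sham. Their part in the result was not tested. With crypt markers as a term, chosen after seeing the data, the fold change of cancer against sham was −1.91 (adjusted p = 0.653), and with the Hox genes it was −1.92 (adjusted p = 0.119). Crypt means did not overlap between cancer and sham, so crypt content and group cannot be told apart in that fit. With DESeq2 the adjusted p was 8.5e-10 for cancer against sham and 8.9e-11 for nivolumab against cancer, so the call depends on the tool.

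Over the whole set, 0 of 53 members tested passed in cancer against sham, where 0% of the 13445 genes tested passed, and 6 members had an unadjusted p under 0.05 (11.3%, with 10.9% of all genes). DESeq2 called 2 members, Gsta3 and Gstm1, both lower in cancer, with 2.86% of all genes called. The libraries of cancer were all below those of sham for 11 members (20.8%, with 12.3% of all genes) and all above for 1 (1.89%, with 6.96%). That 1 was Sult1b1, with 179, 213 and 232 CPM in cancer and 164, 128 and 177 CPM in sham. Fold changes were positive for 20 members (37.7%, with 50.3% of all genes), and the median log2 fold change was −0.23 over the members and 0.00 over all genes. The 7 members that were not tested, Cyp4f39, Cyp26a1, Cyp24a1, Cyp21a1, Cyp17a1, Gstt4 and Sult1e1, did not exceed 0.479 CPM in any colon library, where 3 counts were worth 0.0950 to 0.149 CPM.

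By class, all 6 mu members had negative fold changes in cancer against sham (median −0.61), and for 5 of them, all but Gstm4, the groups did not overlap. Gstm1 had 199, 202 and 179 CPM in nivolumab, 112, 138 and 130 CPM in cancer and 178, 211 and 187 CPM in sham. Its 3 cancer libraries lay below the 6 others, 1.51-fold lower than sham in the fit (−0.59, SE 0.13, adjusted p = 0.218). Gstm3 had 32.5, 37.4 and 31.2 CPM in nivolumab, 16.6, 2.18 and 21.8 CPM in cancer and 42.4, 37.2 and 43.2 CPM in sham. It was lowest in cancer 2, the library with the highest enteric neuron and glia markers (mean 4.90 log2 CPM, 0.27 to 3.69 in the others), and its fold change of −1.60 (SE 0.62, adjusted p = 0.405) was −1.08 without that library.

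Both the theta class (3 of 3) and the omega, zeta and kappa class (4 of 4) had negative fold changes of cancer against sham, with medians of −0.31 and −0.29 and overlapping groups throughout. Of the 4 alpha genes 2 were lower and 2 higher in fold change. Ugt2b35 had 16.8, 13.4 and 15.8 CPM in nivolumab, 17.3, 4.26 and 14.9 CPM in cancer and 31.1, 30.4 and 35.9 CPM in sham. All 6 libraries of tumour-bearing mice lay below the 3 sham libraries, with a log2 fold change of −1.42 in cancer (SE 0.43, adjusted p = 0.318) and −1.08 in nivolumab (SE 0.43, adjusted p = 0.747), each against sham. The summed level of 6 leukocyte markers was split likewise, at 253 to 475 CPM in nivolumab, 149.6 to 407.9 CPM in cancer and 1062 to 1280 CPM in sham, while their means overlapped at 4.37 to 5.42 log2 CPM in nivolumab, 3.77 to 5.20 in cancer and 4.77 to 5.39 in sham, and their part in the result was not tested. Cyp4f18, which hydroxylates leukotriene B4, had 7.26, 4.26 and 8.21 CPM in nivolumab, 1.77, 2.83 and 1.74 CPM in cancer and 6.17, 3.57 and 3.94 CPM in sham. The 3 cancer libraries lay below all 6 others (−1.11 against sham, SE 0.41, adjusted p = 0.381), and 9.76% of the exon length of Cyp4f18 is overlapped by Zfp961 on the other strand.

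**Figure D2:**
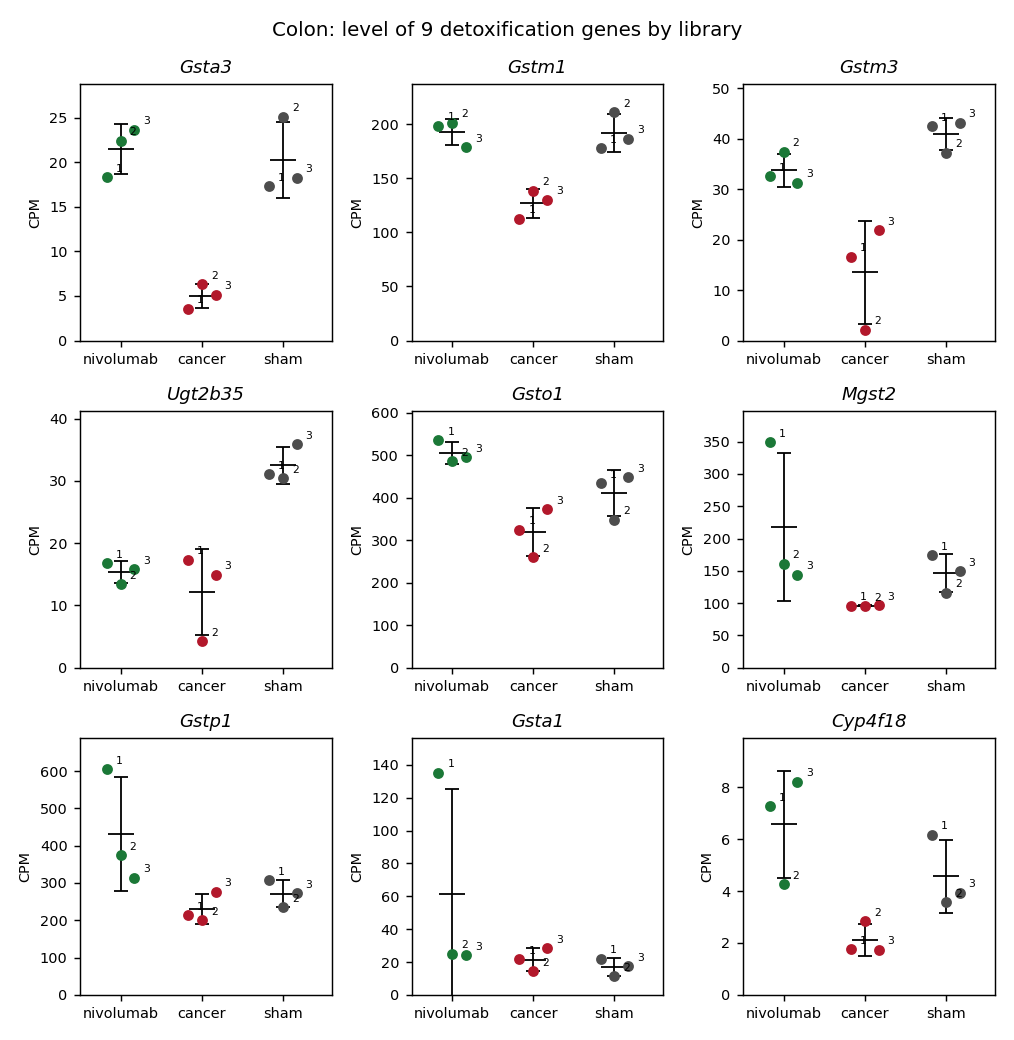
CPM of 9 members in each colon library, with nivolumab, cancer and sham from left to right in each panel, library numbers beside the points, and bars for the mean and SD of 3 libraries. Cancer libraries of Gsta3, Gstm1, Gstm3 and Cyp4f18 lie below both other groups, and nivolumab 1 stands high in Gsta1, Gstp1 and Mgst2.

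Nivolumab against cancer in the colon showed more members with higher than lower fold changes, led by the transferases. Of 53 members 0 passed the threshold, with 0% of all genes, and 12 had an unadjusted p under 0.05 (22.6%, with 9.84% of all genes), of which 10 were higher (18.9%, with 5.55%). DESeq2 called 3 (Gsta3, Gstm1 and Cyp4f18, all higher), with 1.38% of all genes called. The nivolumab libraries were all above those of cancer for 10 members (18.9%, with 7.99% of all genes) and all below for 2 (3.77%, with 7.15%). Fold changes were positive for 37 members (69.8%, with 53.1% of all genes), with a median of 0.34 over the members and 0.03 over all genes. Positive fold changes were seen for 4 of 4 alpha, 6 of 6 mu and 3 of 3 membrane-bound transferases.

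Gsto1, which reduces dehydroascorbate, had 536, 486 and 495 CPM in nivolumab, 324, 260 and 372 CPM in cancer and 433, 348 and 449 CPM in sham. The nivolumab libraries lay above all 6 others (0.66 against cancer, SE 0.17, adjusted p = 0.379). Mgst2 had 349, 161 and 144 CPM in nivolumab, 95.7, 95.3 and 96.5 CPM in cancer and 174, 116 and 149 CPM in sham. The 3 cancer libraries lay below all others and close to each other, and the fold change against cancer was 1.18 (SE 0.32, adjusted p = 0.379). Gstp1 had 605, 374 and 314 CPM in nivolumab, 214, 199 and 277 CPM in cancer and 307, 235 and 272 CPM in sham. Its nivolumab libraries lay above the 6 others (0.91 against cancer, SE 0.26, adjusted p = 0.394), and without nivolumab 1 the fold change was 0.51 (adjusted p = 0.42).

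Much of this excess was largest in 1 library. Nivolumab 1 held the highest level of 17 of the 53 members (32.1%, with 15.2% of all genes tested), among them Gsta1, Gsta4, Gstp1, Gsto1, Mgst1, Mgst2, Mgst3, Sult1a1, Sult1d1 and Cyp2s1. Gsta1 had 135 CPM there, 25.0 and 24.0 CPM in the other nivolumab libraries, 14.3 to 28.4 CPM in cancer and 11.3 to 22.0 CPM in sham. Cyp4b1, a fatty acid hydroxylase, had 27.3 CPM there and 0.504 to 6.05 CPM in the 8 other libraries. This library also had the lowest hind gut Hox mean (−0.78 log2 CPM) and low crypt markers (2.20), and their part in its enzyme levels was not tested. The summed CPM of the 22 transferases was 3411 in nivolumab 1, 2320 and 2054 in the other nivolumab libraries, 1499 to 1835 in cancer and 1709 to 2094 in sham. Gsta3 and Gstm1 were not highest there.

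**Figure D3:**
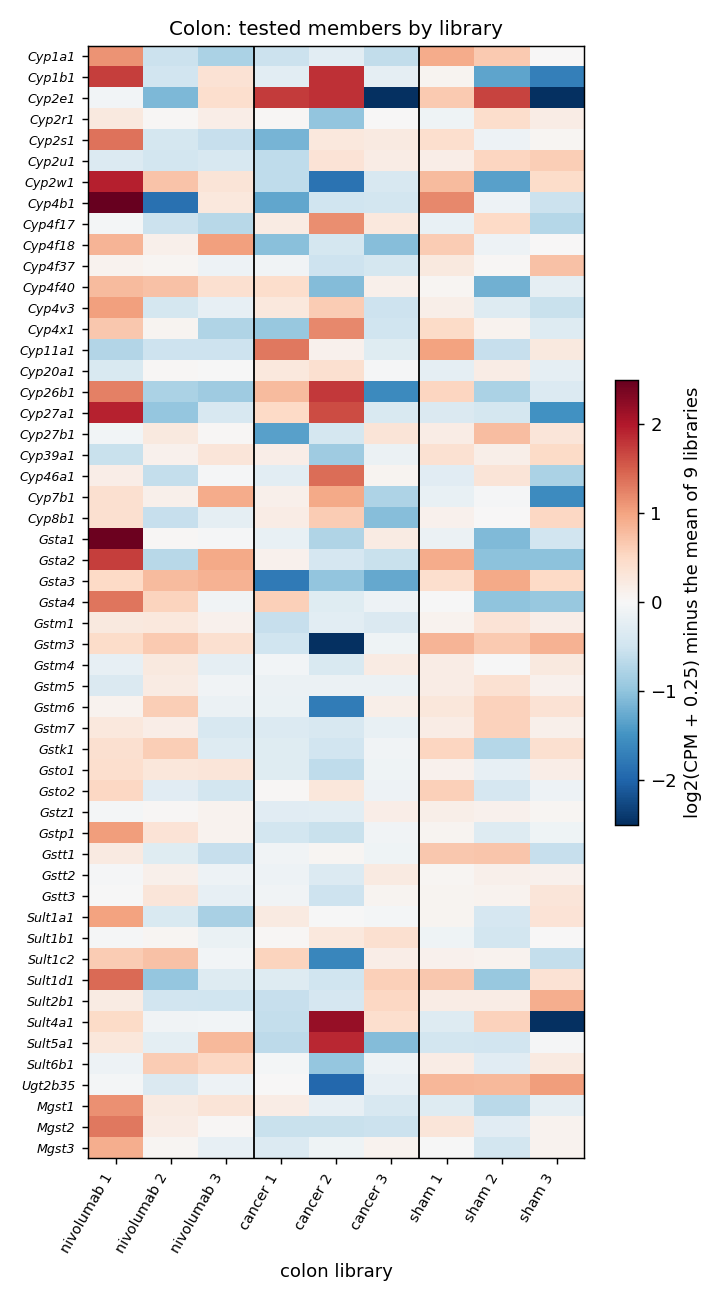
Level of the 53 tested members (rows, by class) in each colon library, as log2(CPM + 0.25) minus the mean of the 9 libraries, with nivolumab, cancer and sham from left to right. The column of nivolumab 1 is red for many transferases, sulfotransferases and P450 genes, cancer 2 mixes dark blue and red, and Gsta3 is blue in all 3 cancer libraries.

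Nivolumab against sham had 0 of 53 members past the threshold (0% of all genes), and DESeq2 also called 0 (1.09% of all genes). At an unadjusted p under 0.05 there were 7 members (13.2%, with 6.45% of all genes). The nivolumab libraries were all above sham for 6 members (11.3%, with 8.82% of all genes) and all below for 2 (3.77%, with 6.11%), and 29 fold changes were positive (54.7%, with 54.1%). For any difference among the 3 groups 0 members passed (0.0149% of all genes), with 10 at an unadjusted p under 0.05 (18.9%, with 9.68%), and DESeq2 called 3 (3.45% of all genes). The smallest p was that of Mgst1, a membrane transferase with peroxidase activity, with 314, 165 and 178 CPM in nivolumab, 161, 123 and 107 CPM in cancer and 113, 88.8 and 122 CPM in sham. Its nivolumab libraries lay above all others (1.02 against sham, SE 0.27, adjusted p = 0.512). Gsta4, which conjugates the lipid aldehyde 4-hydroxynonenal, gave 1.32 (SE 0.43, adjusted p = 0.666) with overlapping groups, and Gstp1 gave 0.67 (SE 0.26, adjusted p = 0.724). Members of the 4 sulfotransferase-1 genes tested had fold changes of 0.12 to 0.57, and the P450 classes were split, with 11 of 23 positive.

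Genes that serve these enzymes were counted in 7 lists of regulators, NRF2 targets, glutathione synthesis, P450 electron supply, conjugation donors, other oxidising or reducing enzymes and efflux transporters. In the colon 0 genes of any list passed in any comparison. Of 7 NRF2 targets tested, 5 had negative fold changes in cancer against sham (median −0.39) and 6 positive ones in nivolumab against cancer (median 0.92). Among all genes 50.3% and 53.1% of these fold changes were positive, and both comparisons share the cancer libraries. Nivolumab 1 held the highest level of Nqo1, Hmox1, Gclc and Gclm, but not of Txnrd1, Slc7a11 and Me1. Gclm, the regulatory subunit of glutathione synthesis, had 115, 77.1 and 88.5 CPM in nivolumab, 53.4, 43.0 and 55.1 CPM in cancer and 69.7, 57.5 and 70.7 CPM in sham (0.89 for nivolumab against cancer, SE 0.18, adjusted p = 0.271). Cbr3, a carbonyl reductase, had 55.6, 19.3 and 21.4 CPM in nivolumab, 3.06, 3.44 and 8.70 CPM in cancer and 24.3, 22.6 and 19.1 CPM in sham. As for Gsta3, its cancer libraries lay below all 6 others (2.67 for nivolumab against cancer, SE 0.53, adjusted p = 0.271).

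In the dorsal horn the members that passed in the main fit, which did not pair libraries by number, were lower, by small amounts. With the replicate number as a block, Cyp27a1, Cyp39a1 and Cyp4f39 were also called, higher in nivolumab than in cancer. Gstp1 was lower in cancer than in sham, and nivolumab horns had less Cyp46a1, Gsta4, Gstm1 and Gstz1 than cancer horns. These differences measured 1.24-fold to 1.75-fold, and the spread between libraries was smaller than in the colon. The median SD of log2 CPM within groups was 0.24 over the 41 members tested there and 0.60 over the 53 tested in the colon.

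Gstp1, the pi-class transferase, had 137, 136 and 136 CPM in nivolumab, 129, 132 and 133 CPM in cancer and 175, 159 and 163 CPM in sham. All 6 libraries of tumour-bearing mice lay below the 3 sham libraries. It fell 1.26-fold in cancer against sham (log2 fold change −0.33, SE 0.05, adjusted p = 0.0342) and 1.22-fold in nivolumab against sham (−0.28, SE 0.05, adjusted p = 0.0134). It was the 1 of 41 members called in cancer against sham (2.44%), where 0.323% of the 13609 genes tested were called and 0.228% were lower. The cancer libraries were all below sham for 4 members (9.76%, with 8.35% of all genes) and all above for 0 (8.46%), 4 had an unadjusted p under 0.05 (9.76%, with 13.1%), and 18 fold changes were positive (43.9%, with 51.4%). DESeq2 called 1 (2.65% of all genes). The call was lost without sham 1 (adjusted p = 0.168), sham 2 (0.0674), cancer 1 (0.0533), cancer 2 (0.101), cancer 3 (0.0727), nivolumab 1 (0.0935), nivolumab 2 (0.0802) or nivolumab 3 (0.0672), although the log2 fold change kept between −0.36 and −0.29. Red blood cell markers moved with it, with 4 of 5 tested lower in cancer than in sham and summed levels of 219.5 to 291.3 CPM in nivolumab, 109.3 to 220.7 CPM in cancer and 738.1 to 1274 CPM in sham, and their part in the result was not tested. Myelin markers (3 of 8 lower in cancer than in sham) had means of 11.05 to 11.18 log2 CPM in nivolumab, 10.13 to 10.70 in cancer and 11.004 to 11.42 in sham, and with their mean as a term, chosen after seeing the data, the fold change was −0.33 (adjusted p = 0.0889). With neuron markers as the term it was −0.22 (adjusted p = 0.999). Means of both lists did not overlap between cancer and sham, so marker content and group cannot be told apart in these fits.

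Nivolumab against cancer gave 4 of 41 members called, all lower (9.76%, with 8.6% of all genes called lower), and 0 called higher, where 8.63% of all genes were. Counts in either direction were 4 members (9.76%) and 17.2% of all genes, and at an unadjusted p under 0.05 they were 11 members (26.8%) and 34.2%. The nivolumab libraries were all above cancer for 7 members (17.1%, with 20.6% of all genes) and all below for 8 (19.5%, with 19.5%), and 18 fold changes were positive (43.9%, with 50%). DESeq2 called 6 members (23.5% of all genes). Same-numbered nivolumab and cancer libraries deviated together (correlations of 0.19 to 0.28), and with the replicate number as a block 8 members passed, with 22.5% of all genes. These were the same 4 and Gstm5, all lower, and Cyp27a1, Cyp39a1 and Cyp4f39, higher. Cyp46a1, which turns cholesterol into the form that leaves the brain, had 49.2, 51.3 and 48.4 CPM in nivolumab, 62.4, 71.0 and 67.7 CPM in cancer and 63.1, 63.2 and 63.8 CPM in sham. The 3 nivolumab libraries lay below all 6 others, and the level fell by 0.43 on the log2 scale against cancer (SE 0.06, adjusted p = 0.00371) and by 0.35 against sham (SE 0.06, adjusted p = 0.0136). Neuron markers were also low in nivolumab, with 5 of 8 lower than in cancer and means of 7.91, 7.96 and 7.89 log2 CPM in nivolumab, 8.29, 8.31 and 8.20 in cancer and 7.97, 8.13 and 8.10 in sham. With the mean of these markers as a term, chosen after seeing the data, the fold change of Cyp46a1 against cancer was −0.37 (adjusted p = 0.888), in a fit that called 0 genes in all.

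Gsta4 had 52.0, 58.8 and 51.6 CPM in nivolumab, 67.0, 64.7 and 70.2 CPM in cancer and 76.5, 72.3 and 74.1 CPM in sham. The 3 groups did not overlap, with nivolumab lowest and sham highest. It fell by 0.31 on the log2 scale against cancer (SE 0.07, adjusted p = 0.0161) and by 0.46 against sham (SE 0.07, adjusted p = 0.00832), while cancer against sham gave −0.14 (SE 0.07, adjusted p = 0.41). The call against cancer was lost without nivolumab 1 (adjusted p = 0.0733) or nivolumab 3 (0.0626), and that against sham without nivolumab 1 (0.0575). With neuron markers as a term the fold changes were −0.40 against cancer (adjusted p = 0.888) and −0.49 against sham (adjusted p = 0.182). The neuron marker means of the nivolumab libraries lay below all others, so neuron content and group cannot be told apart in this fit.

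Gstm1 had 160, 194 and 209 CPM in nivolumab, 264, 271 and 449 CPM in cancer and 325, 248 and 333 CPM in sham. The nivolumab libraries lay below all others, and cancer 3 stood high. It fell 1.75-fold against cancer (−0.80, SE 0.23, adjusted p = 0.0484), and 1.61-fold lower levels against sham (−0.69, SE 0.23) had an adjusted p of 0.106. Without cancer 3 the fold change against cancer was −0.51 (adjusted p = 0.0566), and the call was lost without any other 1 library but cancer 1, with adjusted p-values of 0.0522 to 0.15. Gstz1, which isomerises maleylacetoacetate in tyrosine breakdown, had 48.6, 50.1 and 50.2 CPM in nivolumab, 54.4, 61.4 and 70.1 CPM in cancer and 60.5, 55.7 and 65.7 CPM in sham. Genes on the other strand overlap 12.2% of its exon length. Its nivolumab libraries also lay below the 6 others (−0.32 against cancer, SE 0.10, adjusted p = 0.048). That call was lost when sham 1, cancer 2, cancer 3 or 1 of the nivolumab libraries was left out (adjusted p 0.0714 to 0.152). These 2 fold changes moved both ways with marker terms. With myelin markers, chosen after seeing the data, they were −0.17 for Gstm1 (adjusted p = 0.709) and −0.05 for Gstz1 (adjusted p = 0.813), with ganglion markers −1.22 (adjusted p = 0.00828) and −0.52 (adjusted p = 0.00324), and with neuron markers −1.84 and −0.60 (adjusted p = 0.888 for both). The means of each of these marker lists did not overlap between nivolumab and cancer. Marker content and group therefore cannot be told apart in any of these fits. Astrocyte markers moved with the members that were lower in nivolumab, with 4 of 8 lower than in cancer and 3 of 8 lower than in sham. Their means were 8.21 to 8.32 log2 CPM in nivolumab, 8.16 to 8.45 in cancer and 8.39 to 8.70 in sham, their summed levels overlapped at 4673 to 5428 CPM in nivolumab, 3975 to 5619 CPM in cancer and 4471 to 6409 CPM in sham, and their part in these results was not tested.

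**Figure D4:**
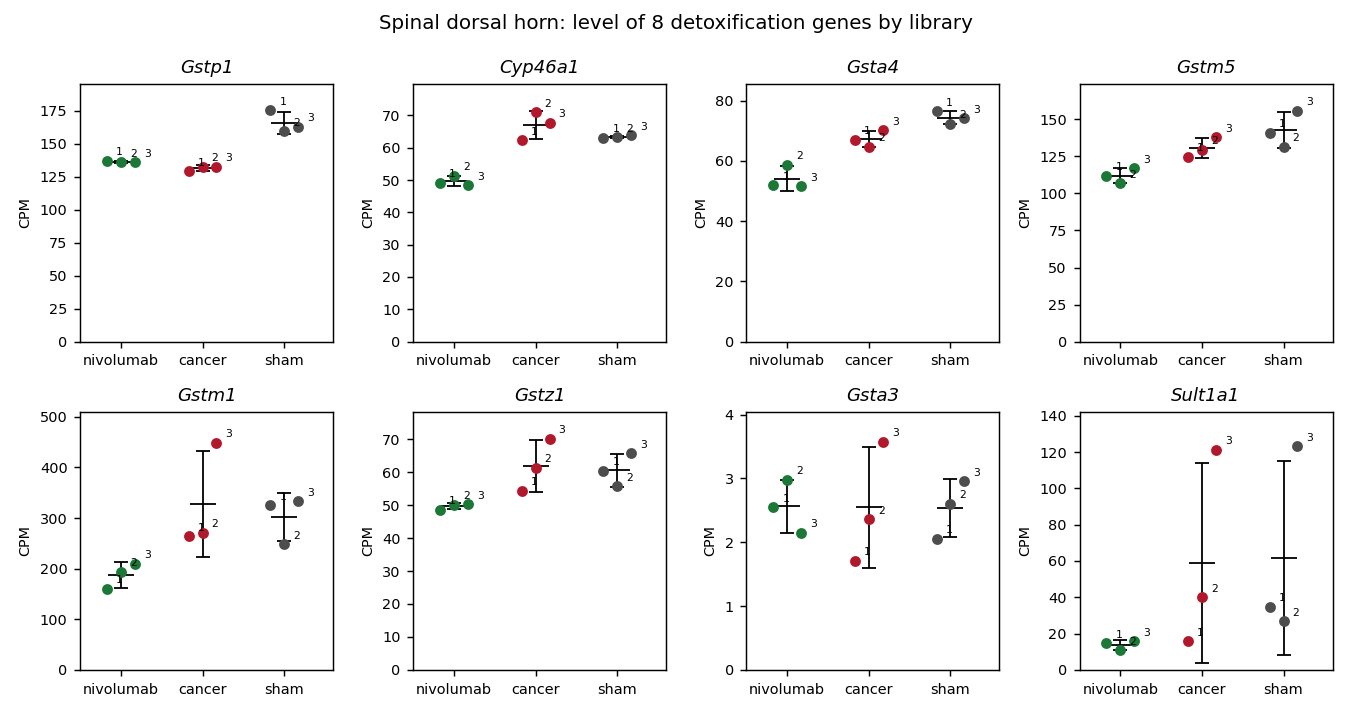
CPM of 8 members in each dorsal horn library, with nivolumab, cancer and sham from left to right in each panel, library numbers beside the points, and bars for the mean and SD of 3 libraries. Gstp1 is high in sham alone, Cyp46a1, Gsta4, Gstm5, Gstm1 and Gstz1 are lowest in nivolumab, Gsta3 is level, and Sult1a1 is high in cancer 3 and sham 3.

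Nivolumab against sham gave 4 members, all lower (9.76% of 41, with 3.84% of all genes lower and 8.51% in either direction), and 0 higher, where 4.67% of all genes were. Beside Gstp1, Cyp46a1 and Gsta4 this was Gstm5, a mu transferase abundant in brain, with 112, 107 and 117 CPM in nivolumab, 125, 129 and 138 CPM in cancer and 141, 132 and 156 CPM in sham. Its nivolumab libraries lay below all others (−0.35 against sham, SE 0.07, adjusted p = 0.0196), and an antisense gene overlaps 13.9% of its exon length. Without nivolumab 1 none of the 4 was called, with adjusted p-values of 0.0757 for Cyp46a1, 0.0575 for Gsta4, 0.109 for Gstm5 and 0.072 for Gstp1. Without sham 1 or nivolumab 3 only Gsta4 was, and without nivolumab 2 Gstm5 was lost (adjusted p = 0.0785). Without sham 3 there were 8, with Cyp2e1, Cyp4f39, Cyp4x1 and Gstm7 added, and the share of all genes called in that fit is not given here. The nivolumab libraries were all below sham for 11 members (26.8%, with 18.1% of all genes) and all above for 3 (7.32%, with 17.1%), in all 14 (34.1%, with 35.2%), and the median log2 fold change was −0.12 over the members and −0.00 over all genes, with 13 positive (31.7%, with 49.5%). At an unadjusted p under 0.05 there were 11 (26.8%, with 26.1%), and DESeq2 called 6 (14.4% of all genes). For any difference among the 3 groups the 4 members Gstp1, Cyp46a1, Gsta4 and Gstm5 passed (9.76%, with 13.9% of all genes), 11 had an unadjusted p under 0.05 (26.8%, with 32.3%), and DESeq2 called 6 (24% of all genes).

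Other dorsal horn members did not pass in the main fit, although Cyp27a1, Cyp39a1 and Cyp4f39 did with the block in nivolumab against cancer. Gsta3 had 2.55, 2.98 and 2.15 CPM in nivolumab, 1.71, 2.36 and 3.58 CPM in cancer and 2.05, 2.602 and 2.96 CPM in sham, with fold changes of 0.01 against cancer and −0.00 for cancer against sham. Sult1a1 had 14.7, 10.8 and 15.9 CPM in nivolumab, 15.9, 40.1 and 121 CPM in cancer and 34.7, 26.9 and 123 CPM in sham. Cancer 3 and sham 3 stood far above their groups, and nivolumab against cancer gave −2.10 (SE 0.90, adjusted p = 0.154). These libraries also had the highest ganglion marker means of their groups. The means of the nivolumab libraries were higher still, and the part of these markers in the Sult1a1 levels was not tested. Cyp39a1, which hydroxylates 24-hydroxycholesterol, had 11.9, 12.6 and 14.7 CPM in nivolumab, 10.9, 7.31 and 7.90 CPM in cancer and 13.5, 12.5 and 9.66 CPM in sham (0.59 against cancer, SE 0.18, adjusted p = 0.0524). Cyp4f39, a hydroxylase of very long fatty acids, had 4.24, 2.12 and 5.29 CPM in nivolumab, 0.105, 0.266 and 1.15 CPM in cancer and 0.164, 0 and 1.40 CPM in sham (adjusted p = 0.112 against cancer). Sult4a1, the most abundant member, ranged from 496 to 586 CPM with no fold change beyond 0.08 between groups. The 18 members not tested did not exceed 0.442 CPM in any library.

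Of the serving genes in the dorsal horn, 0 passed in cancer against sham. In nivolumab against cancer, 13 of 60 entries tested over the 7 lists were called higher (21.7%, with 8.63% of all genes) and 2 lower (3.33%, with 8.6%). Ahrr, the repressor of AhR, rose (1.87, adjusted p = 0.00557) at 1.82, 1.82 and 1.92 CPM in nivolumab, 0.489, 0.457 and 0.574 CPM in cancer and 1.32, 0.749 and 1.06 CPM in sham. Nfe2l2, which encodes NRF2, rose (0.62, adjusted p = 0.0308), as did 3 of 7 NRF2 targets, Hmox1, Me1 and Txnrd1, while Rxra, the partner of several nuclear receptors, fell (−0.50, adjusted p = 0.00562). Among other enzymes 4 of 17 rose, led by the quinone reductase Nqo2 (0.92, adjusted p = 0.00297) and the flavin monooxygenase Fmo1 (0.84, adjusted p = 0.00465). Electron donors Cyb5b and Cyb5r3 (2 of 7), Ugp2 (1 of 7 donors) and the transporter Abcg2 (1 of 6) rose, and Ggt1, which breaks down glutathione outside the cell, fell (1 of 8, −0.75, adjusted p = 0.0444). Nivolumab against sham gave 3 of 60 entries higher, Txnrd1, Fmo1 and Nqo2 (5%, with 4.67% of all genes). Rxra and Ggt1 were the 2 lower (3.33%, with 3.84%), so both shares were near those of all genes. Ganglion neuron markers (4 of 14), Schwann cell markers (3 of 7 tested) and myelin markers (3 of 8) were higher in nivolumab than in cancer. So were 2 of 5 markers of satellite glia and nerve fibroblasts and 1 of 7 microglia markers, with 8.63% of all genes higher. Neuron (5 of 8) and astrocyte markers (4 of 8) were lower, and the part of all these markers in the changes was not tested.

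**Figure D5:**
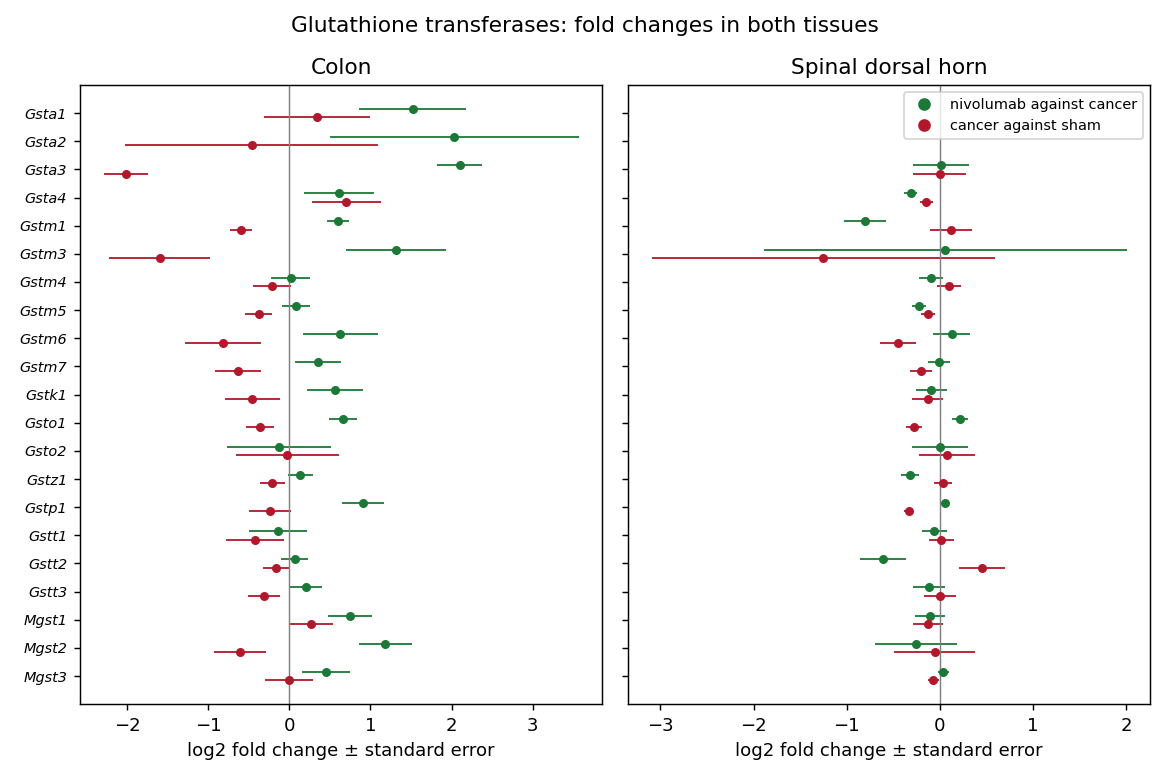
Log2 fold changes with standard errors (horizontal) of 21 glutathione transferases (rows, by class) in the colon (left) and of 19 of them in the dorsal horn (right), for nivolumab against cancer in green and cancer against sham in red, which share the cancer libraries. In the colon most green points lie right of 0 and most red ones left, and in the dorsal horn most points lie near 0 with Gstm1, Gstz1 and Gsta4 left of it in green.

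The responses of both tissues were compared in a joint model of the 18 libraries, with a term for their difference. For cancer against sham 0 of 52 members passed (0%, with 0.155% of 14164 genes), and for nivolumab against cancer 0 of 52 (0%, with 0.127% of genes). The smallest p was that of Gsta3 in both, with colon minus dorsal horn at −1.96 for cancer against sham (SE 0.40, adjusted p = 0.0769) and 2.01 for nivolumab against cancer (SE 0.40, adjusted p = 0.0551). Gstm1 was higher with nivolumab than in cancer in the colon and lower in the dorsal horn, a difference of 1.34 (SE 0.27, adjusted p = 0.0551). At an unadjusted p under 0.05 there were 4 members for cancer against sham (7.69%, with 10.9% of genes) and 9 for nivolumab against cancer (17.3%, with 16.4% of genes). DESeq2 called 1 and 3 members, with 2.35% and 5.26% of genes.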

How the data were processed

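Total RNA of colon and dorsal horn was sequenced on an Illumina NovaSeq instrument, per the labels' protocols, from 9 libraries per tissue. The submitters' processing notes name FastQC 0.11.5, Trimmomatic, HISAT2, StringTie and the build GRCm38. The authors deposited 1 table of raw read counts per gene for each tissue, with counting tool and strand setting not given in the sources used here. Genes were kept by edgeR's filterByExpr and scaled by TMM, and each tissue's 3 groups were fitted together with edgeR 4.0.16 in R 4.3.3 (quasi-likelihood test, robust, two-sided). Adjusted p-values are Benjamini-Hochberg values across every gene tested, called below 0.05. CPM use the scaled library sizes. Tissues were compared by an interaction term over 18 libraries. Exon lengths are from GENCODE M21. DESeq2 1.42.0, other scalings, no filter, a replicate block, marker terms and left-out libraries were alternatives. The labels do not say whether replicate numbers pair libraries. Same-number correlations of deviations ran from −0.44 to 0.46 for colons and from −0.078 to 0.53 for dorsal horns. All 3 were above 0.1 only between nivolumab and cancer in the dorsal horn. Differently numbered libraries also correlated, with 0.469 for dorsal horn sham 2 and cancer 1, so these values do not establish pairing. The main fits did not pair libraries by number, and the block was an alternative only. Colon libraries had a biological coefficient of variation of 0.376, and dorsal horn libraries one of 0.170. A count of 3 was taken as the detection floor and covers counting error only. No 2 libraries of a group agreed within sampling noise. The scripts were tested on simulated data. Named genes were Gsta3, Gstp1, every member past the threshold and members by smallest p, level or class, by a written rule. The members and lists were chosen with earlier results of these data known.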

Additional observations from a re-analysis of the deposited data

How the results depend on the processing

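Among 43 named values, 725 of 815 alternative values kept their side of the threshold, 54 lost a call and 36 gained one. Of those called in the main or the alternative fit, 0 reversed direction. Values called in neither fit counted as kept even if their sign changed. Gstm1 in the dorsal horn did so, with −0.70 to 0.70 for cancer against sham. Of members called in the colon, DESeq2 gave 2 for cancer against sham (2.86% of all genes called) and 3 for nivolumab against cancer (1.38%). It gave 3 for any difference among groups (3.45%). In the dorsal horn, the 2 groups alone gave 0 for cancer against sham. For cancer against sham, nivolumab against cancer, nivolumab against sham and any difference, in that order, ganglion markers as a term gave 2, 10, 10 and 12 members, and neuron markers, added after seeing the data, gave 0, 0, 0 and 0. Myelin markers, added likewise, gave 2 for cancer against sham, 8 for nivolumab against sham and 12 for any difference. Without sham 3 and cancer 3 there were 0 for cancer against sham, 9 for nivolumab against sham and 10 for any difference. A replicate block gave 8 for nivolumab against cancer (22.5% of all genes called), 7 for nivolumab against sham and 9 for any difference. Its pairing is not given by the labels, and same-number correlations were all above 0.1 only between nivolumab and cancer in the dorsal horn. For the tissue interaction, DESeq2 gave 1 for cancer against sham (2.35% of genes) and 3 for nivolumab against cancer (5.26%). The replicate block gave 2 for nivolumab against cancer. Leaving out 1 library gave 0 to 0 in every colon comparison. In the dorsal horn it gave 0 to 1 for cancer against sham, 1 to 6 for nivolumab against cancer, 0 to 8 for nivolumab against sham and 2 to 8 for any difference, and for the interaction 0 to 1 and 0 to 2. The cause was not tested. Where no share of all genes called stands beside a count here, the count is not a result about these enzymes. Members at or under 3 counts in a library are near the detection floor there.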
